A study of Mus musculus with 4 samples.

Results

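The genes described here are 10 genes through which a cell detects RNA of foreign or altered origin in its cytosol and passes the alarm on: Ddx58, Ifih1, Dhx58, Mavs, Eif2ak2, Adar, Zbp1, Trim25, Irf3 and Irf7. They were chosen by symbol, and all 10 were found among the 34745 genes in the count table and passed the filter on low counts. Total RNA of cultured mouse macrophages, bone marrow-derived per the study's text, was sequenced in 2 genotypes, with 2 libraries each. The libraries labelled WT came from mice with a floxed G3bp1 gene (G3bp1 f/f), and those labelled KO came from such mice crossed to Lyz2-Cre (G3bp1mac-/-), so both genotypes carried the floxed allele and only the KO carried the recombinase. G3BP1 is the scaffold protein on which stress granules, cytoplasmic assemblies of stalled mRNA and protein, are built. The study's text allows that Lyz2-Cre may also act in myeloid cells other than macrophages, among them monocytes and granulocytes. The labels give neither a stimulus nor the age or sex of the mice, and they do not say whether the libraries of a genotype came from separate animals or cultures, so p-values measure only the spread between these libraries.

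RIG-I (encoded by Ddx58) and MDA5 (Ifih1) are RNA helicases that bind double-stranded RNA in the cytosol and signal through MAVS, an adaptor on the outer membrane of mitochondria, to the transcription factors IRF3 and IRF7, which switch on type I interferon genes. Interferon in turn raises many genes of the same system, among them the sensors themselves, in macrophages as in most cells. PKR (Eif2ak2) acts beside them: once bound to double-stranded RNA it phosphorylates the translation factor eIF2α, which stalls translation and is a classical trigger of stress granules. The comparison asked whether the transcripts of these sensors and their signalling partners differed between macrophages with and without the Cre deletion of G3bp1.

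Irf7 showed the largest absolute log2 fold change of the 10 genes, and the 95% intervals of the other 9 crossed 0. The WT libraries held 239 and 286 counts of Irf7 and the KO libraries 124 and 106, so that KO held 36.8% of the WT level. Zbp1 had the next largest difference, but its libraries overlapped between the genotypes. The sensors Ddx58 and Ifih1 and the kinase gene Eif2ak2 were each highest in WT replicate 2, while WT replicate 1 lay below or between the KO libraries. edgeR's quasi-likelihood test, with calls made at an adjusted p under 0.05 and more than 2-fold, called 0 of the 10 genes, against 0% of the 12418 genes tested. At an unadjusted p under 0.05 it had 1 of the 10, Irf7, against 6.63% of all genes tested in either direction and 1.99% in the direction of Irf7, lower in KO.

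The total gene counts ran from 16724241 to 19747909 per library, and the members had between 105 and 2145 counts in a library. Replicate numbers stood apart more than genotypes did: the first principal component, with 57.4% of the variance, separated libraries numbered 1 from those numbered 2, and the second, with 34.3%, separated KO from WT. The labels do not say what the number stands for. For G3bp1 and the 10 members, KO is therefore also compared with WT among libraries of equal number, on the log2 scale, where a single pair carries no error. G3bp1 itself gave 1691 and 2875 WT counts and 1307 and 2296 KO counts, a log2 fold change of -0.61 with an edgeR adjusted p of 0.904. Its pairs gave -0.57 and -0.63, and with a library left out the pooled value ran from -1.02 (KO replicate 2) to -0.19 (WT replicate 2). Counts over the whole gene cannot show whether particular exons were lost, and the directions below rest on the labels. The macrophage genes Lyz2, Cd68, Adgre1 and Csf1r were abundant in all 4 libraries, and the summed level of 7 macrophage markers, most of it Lyz2, was 23717 to 26180 CPM in WT and 20845 to 23920 CPM in KO. CPM are counts scaled to a common library total after TMM, and FPKM are the authors' fragment counts divided by gene length and library total. In bulk RNA, fewer cells of a type and less RNA per cell cannot be told apart.

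All 10 are protein-coding genes. Their positions are those of the count table, which equal GENCODE M21 on GRCm38 for 9 of the 10 and differ at the end of Irf3. Of the helicases, the table places Ddx58 (ENSMUSG00000040296) on chromosome 4 from 40203773 to 40239828 (minus strand), Ifih1 (ENSMUSG00000026896) on chromosome 2 from 62595798 to 62646255 (minus strand) and Dhx58 (ENSMUSG00000017830) on chromosome 11 from 100694884 to 100704271 (minus strand). The adaptor and the ligase are Mavs (ENSMUSG00000037523) on chromosome 2 from 131234063 to 131248025 (plus strand) and Trim25 (ENSMUSG00000000275) on chromosome 11 from 88999376 to 89020293 (plus strand). The RNA-binding effectors are Eif2ak2 (ENSMUSG00000024079) on chromosome 17 from 78852564 to 78882573 (minus strand), Adar (ENSMUSG00000027951) on chromosome 3 from 89715022 to 89753446 (plus strand) and Zbp1 (ENSMUSG00000027514) on chromosome 2 from 173206612 to 173218923 (minus strand). Both transcription factors share a chromosome, with Irf3 (ENSMUSG00000003184) on chromosome 7 from 44997648 to 45002847 (plus strand) and Irf7 (ENSMUSG00000025498) on chromosome 7 from 141262706 to 141266481 (minus strand).

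Promoter sequences are shown for the genes on which the results turn, because interferon acts on many of them through a short element in which the bases GAAA recur. The motif searched was GAAANNGAAA on either strand, in the 250 bases before and 50 bases after each annotated start in RefSeq (GRCm38.p6), where 8 of the 10 genes had a window. It was found in Ddx58, Ifih1 and Eif2ak2, and in 3.44% of all 32851 windows, 3.17% of those of tested genes and 19.2% of those of the wider pathway list below. The matches are given with up to 10 flanking bases, 5′ to 3′ on the gene's strand, with the motif in capitals. In Ddx58 (chr4:40239804-40239833, minus strand) it begins at base 3 after the start and reads on the opposite strand, in Ifih1 (chr2:62646206-62646233, minus strand) at base 33, and in Eif2ak2 (chr17:78882535-78882564, minus strand) at base 19.
Ddx58: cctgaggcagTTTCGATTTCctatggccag
Ifih1: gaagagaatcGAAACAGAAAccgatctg
Eif2ak2: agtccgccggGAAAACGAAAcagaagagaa
The window of Irf7, the gene with the largest difference, held no such match, and nor did those of Irf3, Mavs, Trim25 and Adar. A stretch that differs at no more than 1 fixed base was in 35.4% of all 32851 windows, and in windows of Adar and Trim25. The 250 bases before the Irf7 start (chr7:141266425-141266674, minus strand) are shown with the closest stretches in capitals, which differ from the motif at 2 of its fixed bases.
Irf7: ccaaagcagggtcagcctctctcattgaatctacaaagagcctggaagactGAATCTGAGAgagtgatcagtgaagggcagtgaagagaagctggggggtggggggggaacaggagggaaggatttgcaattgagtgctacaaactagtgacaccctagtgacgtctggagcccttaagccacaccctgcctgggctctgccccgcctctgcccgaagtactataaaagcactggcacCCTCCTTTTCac
These matches describe letters in the windows and not bound sites. All 3 genes with a match were highest in WT replicate 2, as were Adar, Zbp1, Irf3 and Irf7.

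The helicases that bind RNA were examined first. Ddx58, which encodes RIG-I, a sensor of short double-stranded RNA with a 5′ triphosphate, gave 322 and 520 WT counts and 400 and 483 KO counts. Ifih1, which encodes MDA5, a sensor of long double-stranded RNA, gave 389 and 684 WT counts and 414 and 541 KO counts. In both genes WT replicate 2 was the highest library and the KO libraries lay between or close to the WT libraries. Ddx58 reached 26.2 ± 9.04 CPM in WT against 23.0 ± 2.17 CPM in KO (2 libraries each, SD), with a log2 fold change of -0.19 (± 0.31 SE, adjusted p 0.971 in edgeR). The pairs gave 0.11 (number 1) and -0.41 (number 2) for Ddx58, so its direction differed between the pairs. Ifih1 reached 33.5 ± 13.4 CPM in WT against 24.9 ± 3.72 CPM in KO, for a log2 fold change of -0.43 (± 0.34 SE, adjusted p 0.941 in edgeR), with ratios of -0.11 and -0.64. WT replicate 2 decided the sign of both: without it the log2 fold change was 0.18 for Ddx58 and 0.020 for Ifih1, while without WT replicate 1 these were -0.50 and -0.78.

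Dhx58, which encodes LGP2, a related helicase without the signalling domains that tunes the other sensors, did not share this profile. It gave 254 and 231 WT counts and 279 and 179 KO counts, and KO replicate 2 was the lowest library at 9.09 CPM against 14.5 to 15.7 CPM in the other 3. The log2 fold change was -0.33 (± 0.32 SE, adjusted p 0.957 in edgeR), with a ratio of -0.065 within number 1 and -0.67 within number 2. The genotypes overlapped, and KO replicate 2 alone lay apart: leaving it out gave -0.010, and leaving out KO replicate 1 gave -0.73.

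**Figure D1:**
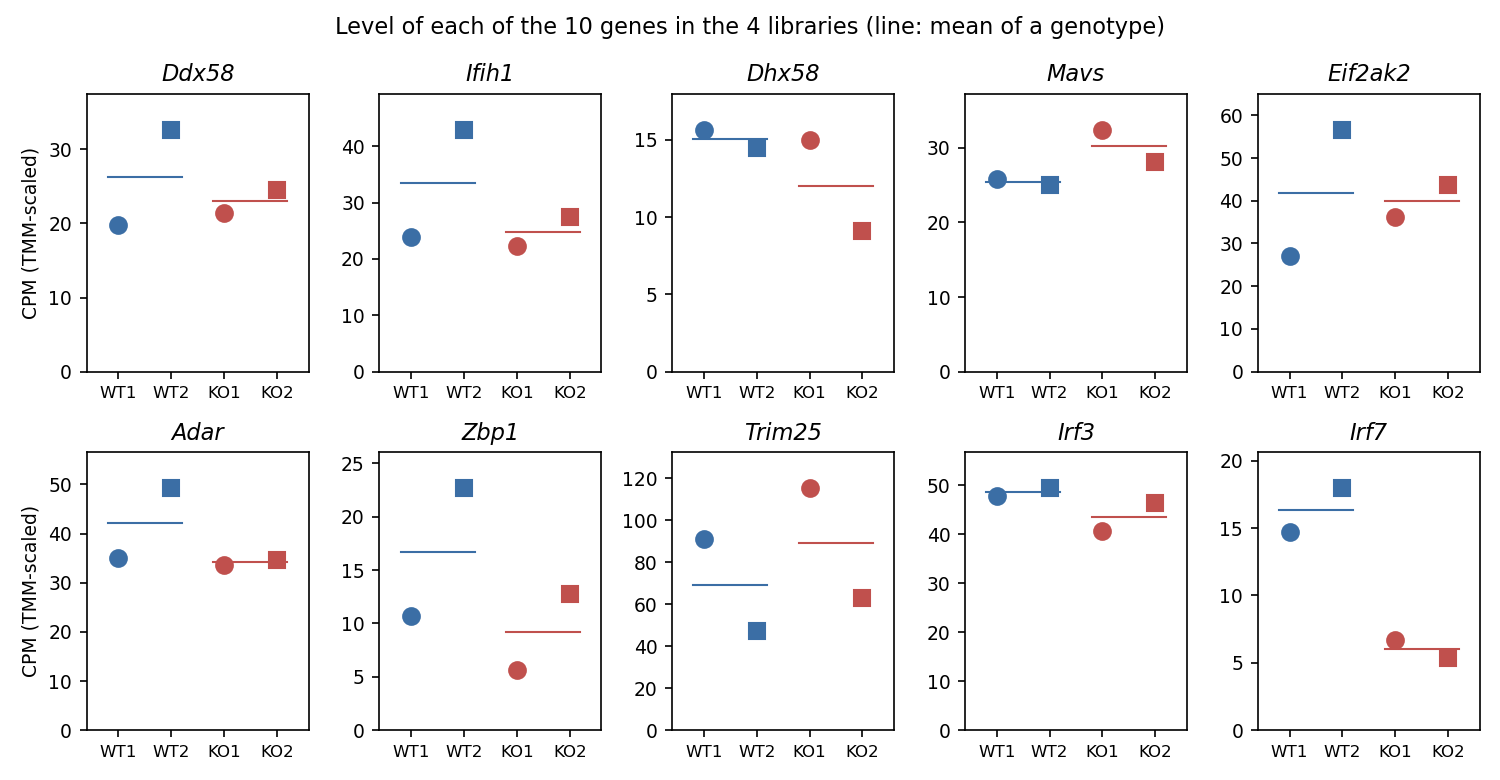
Level of each of the 10 genes in CPM after TMM scaling (y axis, from 0, with its own range for each gene) in the 4 libraries (x axis), WT in blue and KO in red, circles for replicate 1, squares for replicate 2 and a line at the mean of each genotype. Irf7 lies at 14.7 and 17.9 CPM in WT and at 6.65 and 5.39 CPM in KO, while Ddx58, Ifih1, Eif2ak2 and Zbp1 are each highest in WT replicate 2.

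Mavs and Trim25 stand between the sensors and the transcription factors. Mavs gave 419 and 399 WT counts and 604 and 552 KO counts, and both KO libraries (32.4 and 28.0 CPM) lay above both WT libraries (25.8 and 25.0 CPM). It was the only member of the 10 with this order, which 20% of all tested genes showed, and it held in FPKM as well, where 31.6% of all tested genes showed it. The size was small, a log2 fold change of 0.25 (± 0.21 SE, 95% interval -0.30 to 0.79, adjusted p 0.949 in edgeR), and the pairs gave 0.33 for number 1 and 0.16 for number 2. It was 0.14 without KO replicate 1 and 0.13 with the correction for gene length. Trim25 encodes a ubiquitin ligase that modifies RIG-I, and gave 1473 and 749 WT counts and 2145 and 1242 KO counts. Within each genotype, replicate 1 had the higher level, with a log2 ratio of number 2 to number 1 of -0.95 in WT and -0.87 in KO. The KO to WT ratio of Trim25 was 0.34 within number 1 and 0.42 within number 2, while the pooled log2 fold change of 0.37 had an SE of 0.45 (edgeR adjusted p 0.964). With a library left out this value ran from -0.13 (KO replicate 1) to 0.93 (WT replicate 1).

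The effectors Eif2ak2, Adar and Zbp1 bind RNA and act without MAVS. Eif2ak2 (PKR) gave 440 and 902 WT counts and 675 and 861 KO counts, so the WT libraries enclosed the KO libraries. Its log2 fold change was -0.066 (± 0.40 SE, adjusted p 0.990 in edgeR), with ratios of 0.42 within number 1 and -0.37 within number 2. No direction can be read from Eif2ak2: leaving out WT replicate 2 gave 0.53 and leaving out WT replicate 1 gave -0.50, and the value was 0.14 and 0.17 on the log2 FPKM scales with pseudocounts of 1 and 0.1. Adar encodes the enzyme that edits adenosine to inosine in double-stranded RNA and so keeps a cell's own RNA from activating MDA5. It gave 569 and 784 WT counts and 625 and 683 KO counts, or 42.1 ± 9.99 CPM and 34.1 ± 0.820 CPM (SD, n = 2 each). Both KO libraries lay below both WT libraries in CPM, but the genotypes overlapped in FPKM, which carries no TMM factor. The log2 fold change of Adar was -0.30 (± 0.26 SE, adjusted p 0.949 in edgeR), the pairs gave -0.065 and -0.50, and leaving out WT replicate 2 gave -0.071 and leaving out WT replicate 1 gave -0.52. Counts over the gene do not separate its constitutive form from its interferon-inducible form.

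Zbp1, a sensor of Z-form nucleic acid that can engage the necroptosis kinase RIPK3, had the widest range of the 10 genes over the libraries. It gave 173 and 361 WT counts and 105 and 251 KO counts, and each genotype was higher in replicate 2, by 1.08 on the log2 scale in WT and by 1.17 in KO. The pairs of equal number gave nearly the same log2 ratio, -0.92 and -0.83. The pooled log2 fold change of -0.86 (± 0.54 SE, 95% interval -2.24 to 0.53, adjusted p 0.904 in edgeR) did not exceed the spread between replicates, and it ranged from -1.56 with KO replicate 2 left out to -0.25 with WT replicate 2 left out. Genes near to Zbp1 in profile over the 4 libraries were sought by root mean square distance of centred log2 CPM. Members and the wider pathway list were left out of this search. The 5 nearest were Ccr9 (0.090), Snx10 (0.10), Il1rn (0.11), Gpr55 (0.12) and Gm13571 (0.12). Ccr9 and Gpr55 were low in counts, with 13 and 30 in WT and 8 and 23 in KO for Ccr9, and 10 and 18 and 4 and 13 for Gpr55. Snx10 gave 2136 and 4629 WT counts and 1291 and 2675 KO counts, and Il1rn, which encodes the interleukin-1 receptor antagonist, gave 1582 and 3624 WT counts and 1100 and 2831 KO counts. With 4 libraries, such likeness is a description and no measure of a relation.

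The pathway ends in the transcription factors IRF3 and IRF7. Irf3, which is present in resting cells and activated by phosphorylation, gave 776 and 787 WT counts and 758 and 914 KO counts. Per length it was the steadiest member of the 10, with 19.2 and 19.6 FPKM in WT and 19.1 and 19.5 FPKM in KO. In TMM-scaled CPM both KO libraries lay below both WT libraries, at a log2 fold change of -0.16 (± 0.22 SE, adjusted p 0.965 in edgeR), which the spread between libraries covers. The Irf3 pairs gave -0.23 and -0.089, and the pooled value was -0.066 without KO replicate 1, -0.098 with the gene length correction and -0.0078 on the log2(FPKM + 1) scale. Irf7, which is itself induced by interferon and amplifies the interferon response, was at 16.3 ± 2.27 CPM in WT against 6.02 ± 0.897 CPM in KO (2 libraries each, SD). The log2 fold change of Irf7 was -1.44 ± 0.28 (SE, 95% interval -2.15 to -0.73) at an adjusted p of 0.284 in edgeR, which ranked 110 from the lowest of the 12418 tested genes. The pairs gave -1.14 (number 1) and -1.73 (number 2), and the genotypes did not overlap in CPM or in FPKM.

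The call for Irf7 depended on the test. The DESeq2 Wald test called 1 of the 10 genes, Irf7, at a log2 fold change of -1.48 and an adjusted p of 0.0062, against 1.46% of all genes tested in either direction and 0.362% lower in KO. The edgeR exact test called 0 of the 10, with an adjusted p of 0.118 for Irf7, against 1.4% of all genes tested in either direction and 0.242% lower in KO. Leaving out each library in turn gave log2 fold changes of Irf7 from -1.60 to -1.30, and the direction was lower in KO under every setting tried, with the value nearest to 0, -0.77, on the log2(FPKM + 1) scale, which understates changes of low genes. Dhx58, Eif2ak2, Adar, Irf3 and Irf7 each overlap an annotated gene on the opposite strand. For Irf7, which runs from base 141262706, this is Phrf1, which runs to base 141262750. Phrf1 gave 210 and 294 WT counts and 343 and 366 KO counts, and the part of these reads in the Irf7 values was not tested, since the counting is not stated to use strand.

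**Figure D2:**
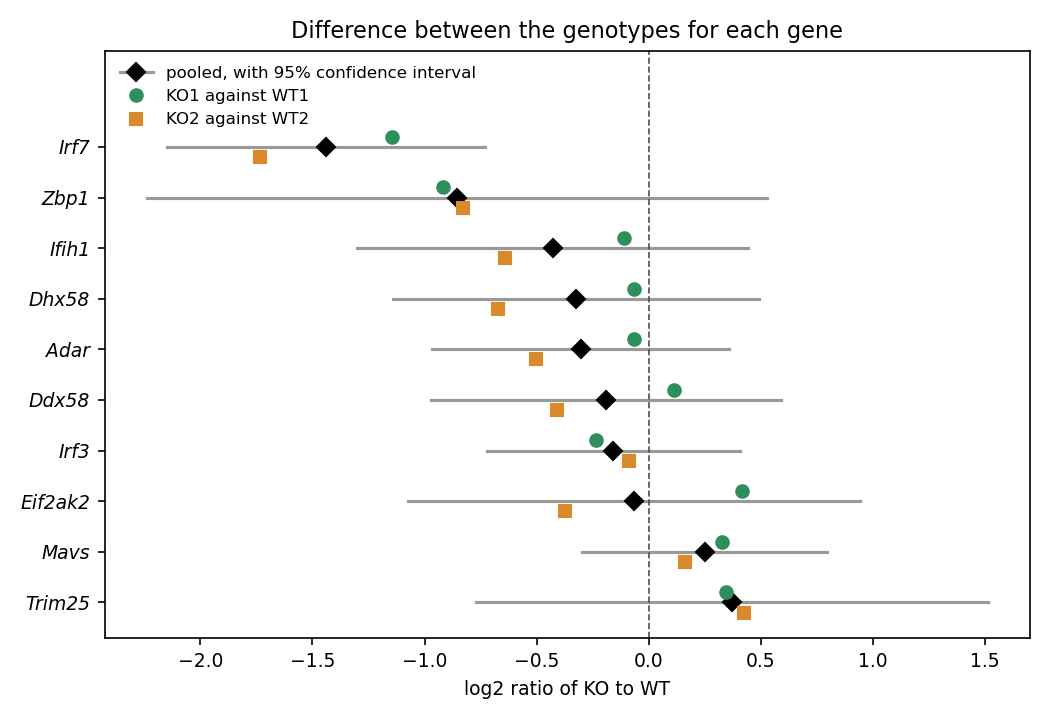
Log2 ratio of KO to WT (x axis) for each of the 10 genes (y axis, ordered by the pooled value), with the pooled edgeR value as a diamond and its 95% confidence interval as a line, KO1 against WT1 as a circle and KO2 against WT2 as a square. The interval of Irf7, from -2.15 to -0.73, is the only one of the 10 that does not cross 0, and Ddx58 and Eif2ak2 have circles above and squares below 0.

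Over the 10 genes, 8 had a pooled log2 fold change below 0 and 2, Mavs and Trim25, above it, with a median of -0.25, while over all tested genes the median was 0.041 and 45.4% were below 0. On the log2(FPKM + 0.1) scale, where the median of all genes was higher by 0.14, the members had 6 below 0 and a median of -0.068, and Ddx58 and Eif2ak2 turned to 0.0021 and 0.17. Without WT replicate 2 the counts were likewise 6 below and 4 above, with a median of -0.064. Within number 1 the members' median ratio was -0.065 and within number 2 it was -0.46, beside medians of 0.11 and -0.0013 over all genes. In CPM, 3 members (Adar, Irf3 and Irf7) had both KO libraries below both WT libraries, an order found in 16.9% of all tested genes, and in FPKM this held for 1, Irf7, against 9.4% of all tested genes. The libraries of the other 6 members overlapped between the genotypes in CPM. WT replicate 2 was the highest library for 7 of the 10 genes.

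Levels of different genes were compared per length. Irf3 was highest with a mean of 19.3 FPKM over the 4 libraries, followed by Trim25 at 13.8, Eif2ak2 at 6.95, Mavs at 4.95, Adar at 3.83, Dhx58 at 3.10, Zbp1 at 2.61, Ifih1 at 2.55, Ddx58 at 2.24 and Irf7 at 1.70 FPKM. The adaptor and the factor activated by phosphorylation thus stood above the helicases and the inducible factor. Neighbours in this order had overlapping ranges throughout, since Trim25 alone spanned 7.61 to 22.0 FPKM, Eif2ak2 4.41 to 9.09 FPKM and Mavs 4.16 to 6.37 FPKM. The ends of the order did not overlap, as Irf3 had at least 19.1 FPKM in each library and Irf7 at most 2.63 FPKM. Irf7 ranked last among the 10 in both KO libraries and in WT replicate 2, and seventh in WT replicate 1.

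**Figure D3:**
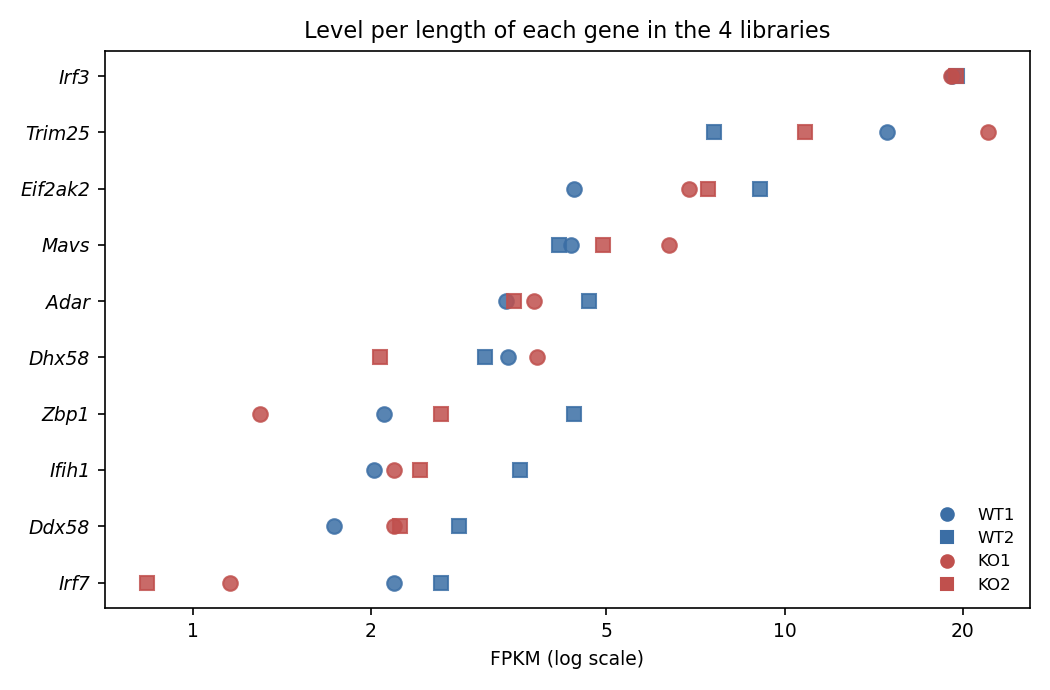
FPKM on a log scale (x axis) of each of the 10 genes (y axis, ordered by the mean) with a point per library, WT in blue, KO in red, circles for replicate 1 and squares for replicate 2. The 4 points of Irf3 lie together between 19.1 and 19.6 FPKM, and those of Zbp1, Trim25 and Irf7 spread over about 3-fold.

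The surrounding pathway was examined in a list of 99 further genes, of which 91 passed the filter. None of them was called by edgeR's quasi-likelihood test, and the list had no steady direction: 53 were below and 38 above 0 with a median log2 fold change of -0.037, against 39 of 92 below 0 and a median of 0.13 on the log2(FPKM + 0.1) scale. The number below 0 was 39 of 91 without WT replicate 2 and 66 of 91 with the gene length correction. FPKM shifted the genes at large upward, so that 31.3% of all tested genes had a lower mean FPKM in KO than in WT, against 37 of the 91. At an unadjusted p under 0.05 there were 7 of the 91 genes, against 6.63% of all genes tested in either direction. All 7 were lower in KO, a direction that held 1.99% of all genes tested: Oas1a, Oas1g, Oas2, Oasl1, Oasl2, Ifit3 and Usp18. These 7 names were read off after the values were seen. The DESeq2 Wald test called 5 of the 91, Usp18, Oas1a, Oasl2, Oas1g and Oasl1, each of them lower in KO, against 0.362% of all genes in that direction. The edgeR exact test called 3, Usp18, Oas1g and Oasl1, also lower in KO, against 0.242% of all genes in that direction. Both KO libraries lay below both WT libraries in CPM for 19 of the 91 and above them for 7, orders found in 16.9% and 20% of all tested genes. In FPKM the same orders held for 10 and 20 of the 91, against 9.4% and 31.6% of all tested genes.

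Of the 7 genes with an unadjusted p under 0.05, all but Usp18 belong to the RNA-binding effectors, a group with many interferon-induced genes. Of 25 tested effectors, 16 were below 0 and 9 above, with a median of -0.36. In CPM, 10 had both KO libraries below both WT libraries, against 16.9% of all tested genes. Both lay above for 2, Zc3hav1 and Dhx9, against 20% of all tested genes. In FPKM 6 were below and 5 above in this way, against 9.4% and 31.6% of all tested genes. Oasl1, an OAS-like protein that limits translation of Irf7 mRNA, gave 169 and 200 WT counts and 67 and 45 KO counts, a log2 fold change of -1.96 (± 0.35 SE, adjusted p 0.262 in edgeR). Oas2, which makes the oligoadenylate that activates RNase L, gave 40 and 80 WT counts and 26 and 13 KO counts, at -1.86 (± 0.58 SE, adjusted p 0.555 in edgeR). Ifit3, of a family that binds foreign RNA, gave 36 and 223 WT counts and 15 and 35 KO counts, at -2.64 (± 0.95 SE, adjusted p 0.679 in edgeR), so that its WT libraries differed from each other more than WT replicate 1 differed from KO replicate 2. The Oas1 genes are close copies of each other, as are Ifit3 and Ifit3b, and whether counts were split between copies was not tested. The helicases Dhx9, Dhx15, Dhx33, Dhx36, Ddx1, Ddx3x and Ddx21, named after their values were seen, lay between 0.060 and 0.30, while the helicases Mov10 and Ddx60 were at -0.12 and -0.52.

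Among the regulators of the sensors and of MAVS, 10 of 21 were below 0 and 11 above, with a median of 0.036. A lower mean FPKM in KO was found for 6 of the 21, beside 31.3% of all tested genes. Usp18, which removes ISG15 and dampens interferon receptor signalling, gave 166 and 174 WT counts and 61 and 46 KO counts, a log2 fold change of -1.91 (± 0.32 SE, adjusted p 0.250 in edgeR). Its libraries stood far apart between the genotypes, as those of Irf7 did. Isg15, the ubiquitin-like protein that it removes, gave 194 and 466 WT counts and 67 and 219 KO counts, at -1.48 (± 0.68 SE, adjusted p 0.837 in edgeR), with higher counts in replicate 2 of each genotype. Zcchc3, a cofactor of the RNA helicase sensors, went the other way with 28 and 46 WT counts and 82 and 69 KO counts, at 0.78 (± 0.40 SE, adjusted p 0.852 in edgeR).

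The genes of the MAVS signalling complex and its kinases lay close to 0, from -0.40 to 0.29. Of 19 tested, 14 were below 0 with a median of -0.070, beside 45.4% of all tested genes below 0. A lower mean FPKM in KO was found for 7 of the 19, beside 31.3% of all tested genes. The more frequent sign thus changed with the scale, as it did for the genes at large, and no direction is read from the group. The 3 of 19 with non-overlapping libraries in CPM, Casp8, Sike1 and Tradd, were at -0.32, -0.20 and -0.12. Their order, both KO libraries below both WT libraries, was found in 16.9% of all tested genes. In FPKM the order of Sike1 held, Casp8 overlapped, and Tradd turned, with 8.79 and 8.76 FPKM in WT and 9.07 and 8.90 FPKM in KO. Of 11 tested genes for the interferon receptor and downstream factors, 8 were below 0 with a median of -0.037, and 4 of the 11 had a lower mean FPKM in KO. Irf9, the DNA-binding part of the factor that interferon activates, gave 581 and 691 WT counts and 584 and 521 KO counts, at -0.45 (± 0.24 SE, adjusted p 0.853 in edgeR). Transcripts of the interferons were at or near 0: Ifnb1 had a single count, in WT replicate 2, and Ifna1, Ifna2 and Ifna4 had 0 counts in all 4 libraries, for which 3 counts per library, 0.152 to 0.188 CPM, are the upper limit by counting error alone. Apart from that single count, these 4 interferon transcripts were not detectable at this depth in either genotype.

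The group of eIF2α, its other kinases and its regulators had 6 of 7 genes above 0, with a median of 0.21. In CPM the libraries overlapped in all 7. In FPKM 4 of the 7 had both KO libraries above both WT libraries, an order found in 31.6% of all tested genes. The gene below 0 was Eif2s1, which encodes eIF2α itself, at -0.35 (adjusted p 0.957 in edgeR). Of the ADAR paralogues and ZBP1 partners, 3 were tested. The necroptosis genes Mlkl and Ripk3 were at -0.30 and -0.18, with KO libraries below WT libraries in CPM, as in 16.9% of all tested genes. The libraries of the third, Adarb1, overlapped. In FPKM the order of Mlkl held, and Ripk3 overlapped, with 16.1 and 14.2 FPKM in WT and 14.9 and 14.8 FPKM in KO. The 5 genes of the cytosolic DNA sensing arm overlapped between the genotypes in CPM, with a median of 0.076. In FPKM 2 of the 5 had both KO libraries above both WT libraries, against 31.6% of all tested genes. In these groups 0 genes had an unadjusted p under 0.05 or were called by DESeq2's Wald test or the edgeR exact test.

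**Figure D4:**
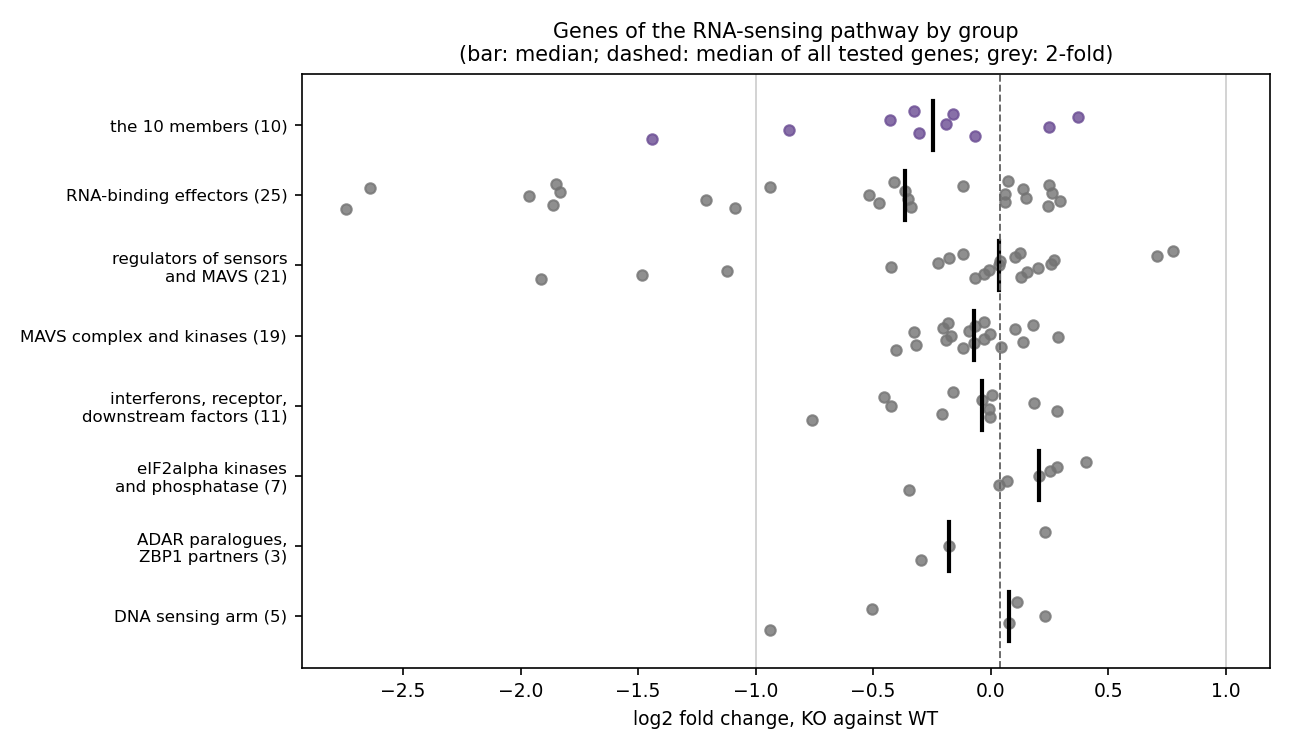
Log2 fold change of KO against WT (x axis) for the 10 members and the tested genes of the 7 groups of the pathway list (y axis, number of genes in brackets), with a point per gene, a bar at each median, a dashed line at the median of all tested genes (0.041) and grey lines at a 2-fold change. Points beyond 2-fold are on the lower side only, at Irf7 among the members, among the RNA-binding effectors and among the regulators.

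Genes of other cell types differed between the genotypes in the same libraries. The summed level of 5 B cell markers was 21.5 to 22.5 CPM in WT and 10.9 to 11.6 CPM in KO, with all 5 lower in both KO libraries. The sum of 8 neutrophil markers was 21.2 to 22.1 CPM in WT and 7.73 to 11.3 CPM in KO, most of it S100a8 and, in WT, S100a9, with 3 of the 8 lower in both KO libraries and Mpo and Elane at 0. The sum of 7 stromal markers went the other way, from 74.7 to 87.8 CPM in WT to 301 to 327 CPM in KO, with 6 of the 7 higher in both KO libraries. The 5 mast cell and basophil markers were at 32.6 to 33.6 CPM in WT and 17.3 to 20.6 CPM in KO, nearly all of it Cpa3, at 29.8 and 31.3 CPM in WT and 15.9 and 19.2 CPM in KO. Of these markers, 3 were lower in both KO libraries, Mcpt8 was at 0, and Gata2 was higher, with 2 and 4 WT counts and 8 and 9 KO counts. The red cell genes Hba-a1, Hbb-bs and Alas2 summed to 7.03 to 9.43 CPM in WT and 1.66 to 2.29 CPM in KO, with all 3 lower in both KO libraries. Markers of T and NK cells were at 1.00 to 1.73 CPM in WT and 0.805 to 0.914 CPM in KO. Conventional dendritic cell markers, at 4.50 to 7.78 and 4.83 to 7.52 CPM, and endothelial markers, at 4.71 to 6.35 and 2.79 to 7.19 CPM, overlapped. The part of these cells in the values of Irf7 and the other members was not tested. Plasmacytoid dendritic cells express Irf7 constitutively, and their markers were at 4.62 to 6.53 CPM in WT and 6.87 to 10.6 CPM in KO. The higher sum in KO came almost wholly from 1 gene, Cox6a2, with 62 and 71 WT counts and 118 and 184 KO counts. The other 4 markers were few in counts and did not share a direction: Ccr9 gave 13 and 30 WT counts and 8 and 23 KO counts, Pacsin1 0 and 3 in WT and 0 in KO, Siglech 0 in WT and 2 and 1 in KO, and Klk1 0 in every library.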

How the data were processed

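The members and gene lists were chosen with earlier results of these data known. Per the labels, total RNA of macrophages was sequenced on an Illumina NovaSeq instrument. The authors filtered reads with Seqtk, aligned them with HISAT2 2.0.4 and counted fragments with StringTie 1.3.3b. They deposited raw counts per gene with FPKM beside them, and the deposited FPKM carry no TMM factor. The submitters' notes name mm39, but 27686 of 34267 gene identifiers shared with GENCODE M21 match it in start and end on GRCm38, the build used here for positions. Strandedness of the counting is not given in the sources used here.

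The analysis used edgeR 4.0.16 in R 4.3.3. filterByExpr (minimum count 10, minimum total 15) left 12418 genes, libraries were scaled by TMM, and genotype was tested two-sided by quasi-likelihood (glmQLFit, glmQLFTest), adjusted over all genes after Benjamini and Hochberg. Calls needed an adjusted p under 0.05 and a log2 fold change beyond 1 in either direction. For ratios within a number, 0.5 was added to each count. Alternatives were DESeq2 1.42.0 size factors and Wald test, the edgeR exact test, limma 3.58.1 on log2(FPKM + 1) and log2(FPKM + 0.1), other filters, a loess correction for gene length (span 0.5), a term for the replicate number, no minimum fold change and each library left out. The same settings for G3bp1 were added after seeing the data. The code was tested on simulated data. Named genes were all members, G3bp1 and up to 3 genes of each pathway group with the largest absolute change among those with non-overlapping libraries. Also named were the 5 genes, outside the members and the pathway list, nearest in profile to the member of widest range. Itgam named 2 genes in the table and was left out of the macrophage markers. Reads carried no molecular identifiers, so limits cover counting error only. The value of 1 further marker gene is not reported here.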

Additional observations from a re-analysis of the deposited data

How the results depend on the processing

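With 2 libraries per genotype, the 9 members other than Irf7 stayed uncalled under every setting tried. Counts of calls moved with the test: the DESeq2 Wald test called 1 member (Irf7), 5 pathway genes and 181 of all genes, the edgeR exact test 0, 3 and 174, and limma on log2(FPKM + 0.1) 0, 0 and 2. The DESeq2 size factors, other filters, limma on log2(FPKM + 1), the gene length correction alone, no minimum fold change and each library left out gave 0 calls in all 3. With the replicate block, 1 member (Irf7, adjusted p 2.07e-06), 11 pathway genes and 664 genes (5.35% of those tested) were called, and with the block and the gene length correction 1 (Irf7, adjusted p 0.0048), 9 and 368. Zbp1 had adjusted p 0.010 and 0.026 in these fits at a fold under 2, and G3bp1 0.085 and 0.034. Over all settings the adjusted p ran from 2.07e-06 to 1.00 for Irf7 and from 0.010 to 1.00 for Zbp1. Libraries that share a number deviated together from the genotype means (correlation 0.710), and the biological coefficient of variation was 0.343 without and 0.169 with the block, but 2 pairs do not establish that the numbers pair the samples. Signs reversed for Eif2ak2 (0.14 and 0.17 with limma at pseudocounts of 1 and 0.1, 0.018 with the block, 0.53 when WT replicate 2 and 0.063 when KO replicate 1 was left out), Ddx58 (0.0021 with limma at 0.1, 0.18 without WT replicate 2), Ifih1 (0.020 without WT replicate 2, and -0.78 without WT replicate 1) and Trim25 (-0.058 when WT replicate 2 and -0.13 when KO replicate 1 was left out, against 0.93 when WT replicate 1 was). With a library left out, the members' median ran from -0.50 to -0.064 and the pathway median from -0.22 to 0.10. The cause of these changes was not tested.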

Other observations

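Of the 91 tested pathway genes, 52 (57.1%) were higher in replicate 2 than in replicate 1 within WT and within KO, and 17 (18.7%) were lower in both, while 32.3% of all tested genes were higher in both and 32.7% lower in both. Among the 10 members, 6 (60%) were higher in replicate 2 of both genotypes and 3 (30%) lower in both. Genes with a wide gap, named after their values were seen, were Irf1, an interferon-inducible transcription factor, with 379 and 3559 WT counts and 376 and 2472 KO counts, and Trex1, which degrades cytosolic DNA, with 54 and 571 WT counts and 49 and 350 KO counts. Nfkb1, a subunit of NF-κB, gave 488 and 3283 WT counts and 732 and 3654 KO counts. Ifit2 had the lowest log2 fold change of the pathway list at -2.74, with 52 and 588 WT counts and 4 and 113 KO counts, so replicate 2 of KO was above replicate 1 of WT. Each number holds 1 library per genotype, and the difference between the numbers was not tested.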
